A study of Mus musculus with 4 samples.

Results

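The SLC25 family of mitochondrial carriers and the uncoupling proteins were examined in mouse heart after myocardial infarction. All genes whose symbol starts with Slc25a, together with Ucp1, Ucp2 and Ucp3, were taken from the deposited counts, which gave 50 of 21552 genes. The exon and splice site events of the same genes numbered 327 of 124326 and came from 45 of the 50 genes. Infarcted samples were the remote area of the hearts of 2 C57BL/6 mice, 7 days after a lasting ligature of the left anterior descending (LAD) artery. Uninjured samples were heart tissue of 2 C57BL/6 mice, also labelled day 7. Infarcted hearts below stands for that remote area, while the Uninjured tissue is given as heart. Any effect of the area sampled therefore cannot be told apart from that of infarction. RNA was polyadenylated and was sequenced from whole tissue, so fewer cells of a type and less RNA per cell cannot be told apart. The labels give neither the age nor the sex of the mice, nor whether the Uninjured mice had a sham operation.

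Most SLC25 proteins sit in the inner mitochondrial membrane and exchange or co-transport a solute between cytosol and matrix. Through them ADP and phosphate reach the ATP synthase, ATP leaves for the cytosol, reducing equivalents enter by the malate-aspartate shuttle, and acylcarnitines enter for fatty acid oxidation. The uncoupling proteins belong to the same family: Ucp1 lets protons back into the matrix in brown fat, whereas the roles of Ucp2 and Ucp3 are less settled. The phosphate carrier gene Slc25a3 has a pair of mutually exclusive exons, and the form with exon A is known as the heart and skeletal muscle form, while the form with exon B is found in most other tissues.

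The pair is shown because the selection of events named it, and the carrier events with the smallest unadjusted p also came from it. Both are coding exons, numbered 3 in their GENCODE M21 transcripts, on the minus strand of chromosome 10. In mm9, the build of the deposited events, exon A lies at chr10:90584952-90585076 and exon B at chr10:90584667-90584788. The sequences below are the GENCODE M21 transcripts' own (GRCm38), and capitals mark bases that differ between the aligned exons or are opposite a gap.
exon A: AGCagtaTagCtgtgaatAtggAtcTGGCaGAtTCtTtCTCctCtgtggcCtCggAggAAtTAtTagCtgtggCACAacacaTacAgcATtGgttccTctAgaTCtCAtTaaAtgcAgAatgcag
exon B: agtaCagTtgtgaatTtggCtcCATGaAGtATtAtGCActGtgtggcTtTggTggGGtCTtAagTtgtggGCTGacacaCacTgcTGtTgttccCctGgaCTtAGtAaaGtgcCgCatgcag
Exon A is 125 nt long and exon B 122 nt, and 77 of 122 aligned bases are identical (63.1%), with 3 bases opposite a gap. Because the lengths differ by 3, either exon leaves the downstream reading frame the same.

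The libraries held 46232326 and 35715115 counts in Infarcted hearts and 53944859 and 70885393 counts in Uninjured hearts. Genes encoded by mitochondrial DNA took 42.0% and 36.7% of the counts in Infarcted hearts and 48.4% and 41.4% in Uninjured hearts. Infarcted replicate 2 stood apart in atrial cardiomyocyte markers, whose summed level over 6 genes was 295 and 2011 CPM (counts scaled to the library size) in Infarcted hearts and 88.8 and 49.5 CPM in Uninjured hearts. The summed level of 12 cardiomyocyte markers was 47959 and 43545 CPM in Infarcted hearts, against 74631 and 88810 CPM in Uninjured hearts. By the test described below 7 of the 12 fell and none was called higher. Myh7, also among the 12, had 344 and 1632 CPM in Infarcted hearts and 67.8 and 43.5 CPM in Uninjured hearts. Its higher Infarcted values did not pass that test (edgeR adjusted p = 0.110). Ttn and Ryr2 overlapped between the groups. Fibroblast markers summed to 8288 and 6738 CPM in Infarcted hearts and 892 and 857 CPM in Uninjured hearts, with 7 of 10 higher, and 10 of 10 macrophage markers were higher (532 and 557 CPM, against 224 and 198 CPM). The labelled tissue therefore showed its defining cardiomyocyte transcripts in all 4 libraries, and the part of these shifts in the carrier results below was not tested.

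All 50 carrier genes had at least 1 count in some library. As a share of counts from nuclear genes they made up 0.728% and 0.730% in Infarcted hearts, against 1.07% and 1.26% in Uninjured hearts. Levels of the carriers are CPM on the same TMM scale. Differences were tested with edgeR's quasi-likelihood F-test, with Benjamini-Hochberg adjustment over all 13905 genes tested and calls at an adjusted p below 0.05. Of the 50 genes 43 were tested. Slc25a2, Slc25a18, Slc25a21, Slc25a41, Slc25a43, Slc25a54 and Ucp1 had too few counts.

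Of the 43 genes tested, 19 fell in Infarcted hearts (44.2%, against 14.6% of all genes tested), 4 rose (9.30%, against 18.3% of all genes) and 20 were not called. The same 14.6% and 18.3% of all genes are the shares to set beside the counts by carrier class below. The median log2 fold change, Infarcted over Uninjured, was -0.36 over the carriers and 0.02 over all genes tested, and 29 of the 43 carriers were below 0. The Infarcted and Uninjured values did not overlap in 32 of 43 carriers (74.4%), close to the 70.0% of all genes. Among genes with a mean of at least 50 CPM, 8 of 13 carriers fell and 0 rose, whereas 25.7% of all genes at that level fell and 13.1% rose. From 5 to 50 CPM, 10 of 22 carriers fell and 3 rose, beside 16.2% and 16.6% of all genes. Below 5 CPM, 1 of 8 fell and 1 rose, beside 6.76% and 23.7% of all genes.

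The calls rest on Uninjured replicate 2 and on the scaling. Without Uninjured replicate 2, edgeR called 0 carriers in either direction and 102 higher and 8 lower genes in all, while 22 carriers were lower and 5 higher at an unadjusted p below 0.05. Each of the 19 lower and 4 higher carriers kept its sign there. DESeq2 without the same library called 12 of 45 carriers lower (26.7%, against 4.21% of all genes) and 3 higher (6.67%, against 8.13% of all genes). Within the Uninjured group, 17 of the 19 lower carriers were higher in replicate 2 than in replicate 1, beside 27 of the 43 carriers tested and 7608 of all 13905 genes. When the totals of the libraries were the only scale, the median of all genes moved to 0.36 and that of the carriers to -0.01, since a change of scale moves all genes by nearly the same amount. On that scale 10 of 43 carriers were lower (23.3%, against 5.65% of all genes) and 6 higher (13.95%, against 31.5%). The calls of Slc25a3, Slc25a4, Slc25a12, Slc25a13, Slc25a15, Slc25a28, Slc25a35, Slc25a39 and Ucp3 were lost there, and Slc25a36 and Ucp2 were called higher. Without Infarcted replicate 2, the library with the atrial transcripts, 14 carriers were lower and 3 higher, and the calls of Slc25a3, Slc25a12, Slc25a13, Slc25a15, Slc25a35, Slc25a39 and Slc25a45 were lost and that of Slc25a47 was gained. The log2 fold changes there were -0.91 for Slc25a3, -0.68 for Slc25a12 and -0.73 for Slc25a13, against -0.91, -0.67 and -0.80 with all libraries. Those of Slc25a15, Slc25a35 and Slc25a39 were -0.56, -0.67 and -0.67 there, against -0.71, -0.76 and -0.77 with all libraries.

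**Figure D1:**
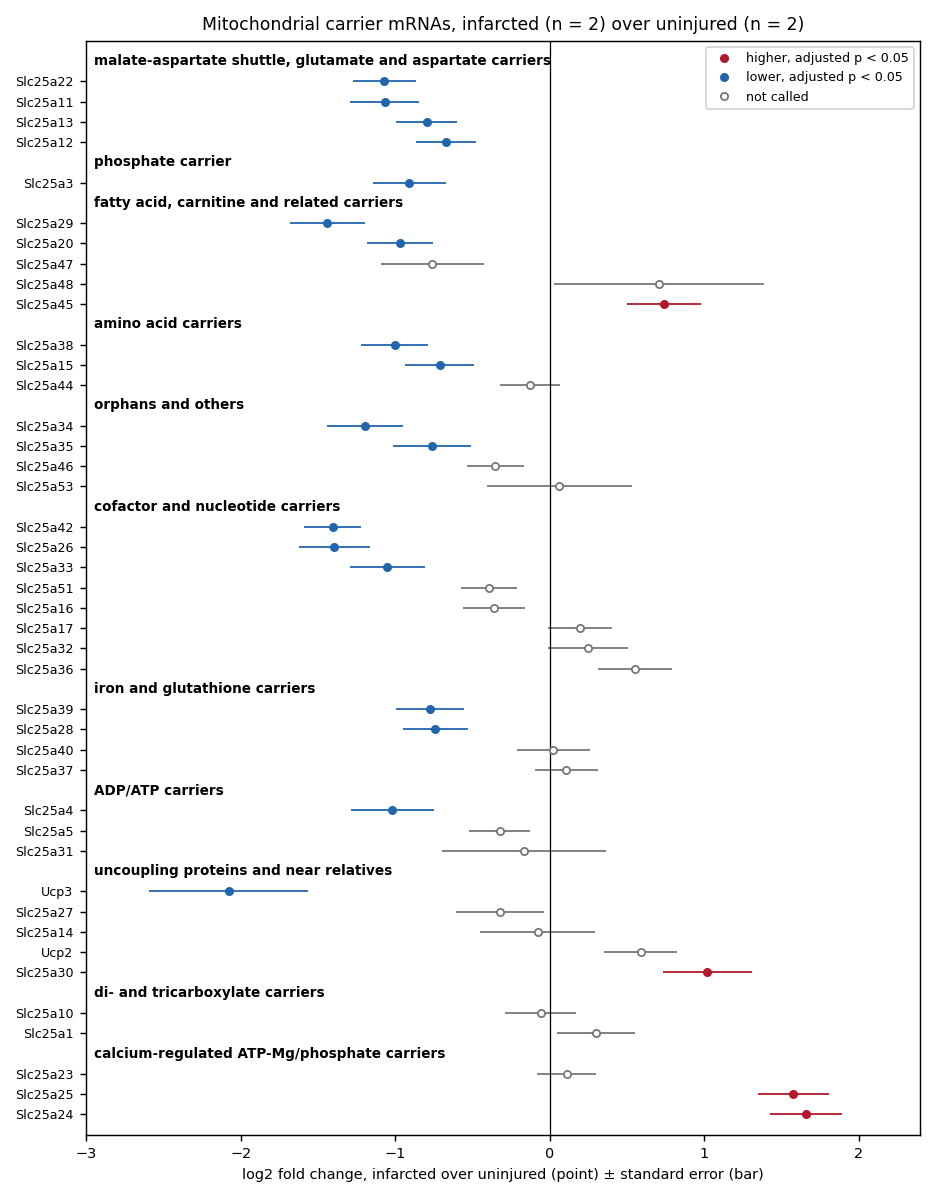
Log2 fold change (Infarcted over Uninjured, point) with its standard error (bar) for 42 of the 43 carriers tested, grouped by role, from edgeR with 2 hearts in each group. Filled points to the left of 0 are 18 of the 19 genes that fell, filled points to the right are the 4 that rose, and open points are the 20 not called.

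The ADP/ATP carriers exchange cytosolic ADP for matrix ATP, and the heart and muscle isoform Slc25a4 (ENSMUSG00000031633) was the carrier with the highest level per kilobase in these hearts. Its level was 2064 and 2128 CPM in Infarcted hearts and 3515 and 4982 CPM in Uninjured hearts, a log2 fold change of -1.02 ± 0.27 (standard error, edgeR adjusted p = 0.0111). Both Infarcted values lay below both Uninjured values. The call was lost when library totals alone set the scale. Slc25a5, the isoform of proliferating and many other cell types, had 159 and 157 CPM in Infarcted hearts and 184 and 212 CPM in Uninjured hearts. Those groups did not overlap either, but the log2 fold change of -0.32 ± 0.20 was not called (edgeR adjusted p = 0.232) and its sign turned with the length trend removed (0.02). With library totals as the scale the value was 0.02, where the median of all genes was 0.36. A pseudogene of Slc25a5 is annotated, and reads that the copies share leave its level uncertain. Slc25a31, the testis isoform, was at 0.280 and 0.238 CPM in Infarcted hearts and 0.334 and 0.255 CPM in Uninjured hearts.

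Per kilobase of transcript, Slc25a4 exceeded Slc25a5 by a ratio of 8.35 and 8.73 in Infarcted hearts and 12.3 and 15.2 in Uninjured hearts. The ratio was lower in both Infarcted hearts than in either Uninjured heart. With 2 hearts a group the smallest two-sided p of an exact permutation test is 0.333, so the within-library ratios are given as values without a test. Of the summed CPM per kilobase of all carriers, Slc25a4 made up 53.6% and 54.9% in Infarcted hearts and 56.8% and 59.4% in Uninjured hearts.

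The phosphate carrier Slc25a3 (ENSMUSG00000061904), which supplies phosphate for ATP synthesis and also carries copper, came second per kilobase. It had 533 and 519 CPM in Infarcted hearts and 842 and 1135 CPM in Uninjured hearts. The groups did not overlap and the gene fell, with a log2 fold change of -0.91 ± 0.24 (edgeR adjusted p = 0.0104), a call that library totals as the scale removed.

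The share of transcripts with each of its mutually exclusive exons was read from the deposited percent inclusion. Exon B was included in 5.19% of transcripts in Infarcted replicate 1 (95% Wilson interval 4.39 to 6.15) and 6.57% in Infarcted replicate 2 (5.56 to 7.78). In Uninjured hearts exon B was included in 1.45% (1.11 to 1.92) and 1.35% (1.08 to 1.70). The intervals cover counting error only, and those of the Infarcted libraries lay above those of the Uninjured libraries. They rested on 2463 and 1929 corrected reads in Infarcted hearts and 3428 and 5402 in Uninjured hearts.

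Exon A was the main form in every library. It was included in 94.65% and 94.42% in Infarcted hearts, against 98.54% and 98.61% in Uninjured hearts, from 3346 and 2544 corrected reads and from 4895 and 7569 corrected reads. The groups did not overlap for either exon. The inclusions of exons A and B summed to 99.84% and 100.99% in Infarcted hearts and 99.99% and 99.96% in Uninjured hearts. Their results below are therefore the same switch read at both exons, not independent events. In edgeR's test of inclusion by group, the log2 odds ratio was -2.005 ± 0.39 for exon A (unadjusted p = 0.00226) and 2.12 ± 0.42 for exon B (unadjusted p = 0.00237). Neither passed the adjustment over all exons tested (edgeR adjusted p = 0.689 for both). The test had 2 residual degrees of freedom and called 0 of 5490 exons (0.0%) and 0 of 2593 splice sites (0.0%), while 388 exons (7.07%) and 145 splice sites (5.59%) had an unadjusted p below 0.05. A DESeq2 likelihood-ratio test also called 0, with 278 exons and 47 splice sites at an unadjusted p below 0.05. Over the 12 other settings run, the log2 odds ratio of exon B stayed between 1.94 and 2.31 and that of exon A between -2.04 and -1.97.

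Among the 93 exons with at least 1000 reads in every library, exon B ranked 15 by the size of its log2 odds ratio and exon A 18, where the median size was 0.81. By p they ranked 3 and 2. These ranks are not independent, as both exons read the same switch. The third exon of the same cluster, 62 nt long, was included in at most 0.13% in Infarcted hearts and 0.03% in Uninjured hearts.

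Multiplying the gene's level by each exon's inclusion gives an estimate of each form. The exon A form was estimated at 505 and 490 CPM in Infarcted hearts and 829 and 1119 CPM in Uninjured hearts. The exon B form was estimated at 27.7 and 34.1 CPM in Infarcted hearts and 12.2 and 15.3 CPM in Uninjured hearts. On these estimates the groups lay apart in opposite directions, with 0.510 times the exon A form and 2.24 times the exon B form in Infarcted over Uninjured means. For every 100 inclusions of exon A there were 5.48 and 6.96 of exon B in Infarcted hearts and 1.47 and 1.37 in Uninjured hearts. Fibroblast and macrophage markers, given above, were higher in the same libraries, and their part in the exon B values was not tested.

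**Figure D2:**
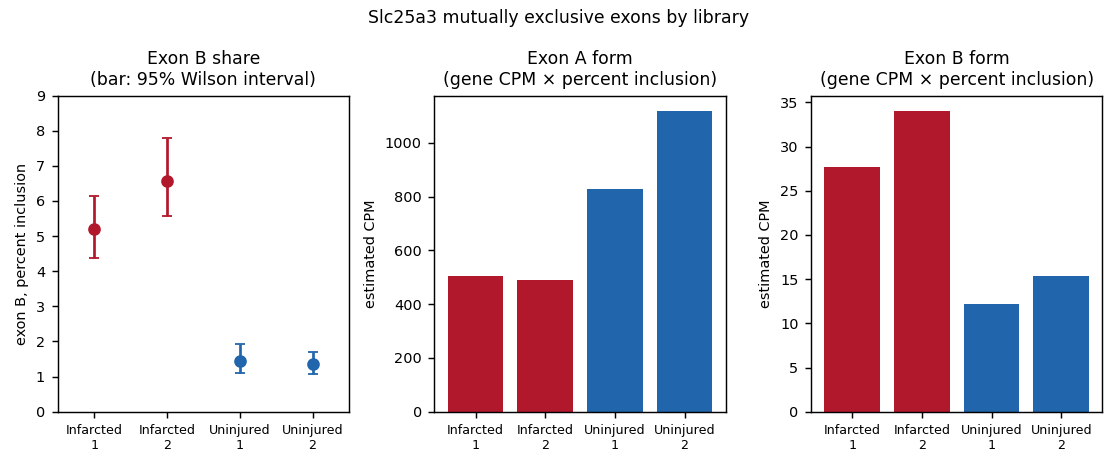
Percent inclusion of Slc25a3 exon B in each library with its 95% Wilson interval (left, counting error only), and the estimated CPM of the exon A form (middle) and exon B form (right), as gene CPM times percent inclusion. Exon B was at 5.19% and 6.57% in Infarcted hearts and 1.45% and 1.35% in Uninjured hearts, and the bars of the exon A form are shorter in Infarcted hearts.

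The malate-aspartate shuttle moves reducing equivalents from cytosolic NADH into the matrix. All 4 tested carriers of this shuttle and of glutamate or aspartate fell, with log2 fold changes between -1.07 and -0.67. Slc25a11, which exchanges 2-oxoglutarate for malate, ranked 3 per kilobase, with 236 and 212 CPM in Infarcted hearts and 408 and 532 CPM in Uninjured hearts (log2 fold change -1.07 ± 0.22, edgeR adjusted p = 0.00316). Its Infarcted values were well below its Uninjured values. It shares 189 exonic bases with Rnf167 on the opposite strand, and without known strand the reads there cannot be told apart.

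The aspartate-glutamate carriers of the shuttle are Slc25a12 and Slc25a13, both regulated by calcium. Slc25a12 had 128 and 125 CPM in Infarcted hearts and 193 and 210 CPM in Uninjured hearts (log2 fold change -0.67 ± 0.20, edgeR adjusted p = 0.0188). Slc25a13 had 73.5 and 64.1 CPM in Infarcted hearts and 131 and 108 CPM in Uninjured hearts (log2 fold change -0.80 ± 0.20, edgeR adjusted p = 0.0077). Neither gene's groups overlapped, but the ratio of Slc25a12 to Slc25a13 per kilobase did overlap, at 0.849 and 0.953 in Infarcted hearts and 0.720 and 0.945 in Uninjured hearts. The glutamate carrier Slc25a22 had 18.4 and 18.6 CPM in Infarcted hearts and 33.2 and 44.5 CPM in Uninjured hearts (log2 fold change -1.07 ± 0.20, edgeR adjusted p = 0.00185). Its relative Slc25a18 was not tested, with 9 and 11 counts in Infarcted hearts and 3 and 8 counts in Uninjured hearts.

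Among 7 enzymes of the malate-aspartate and glycerol phosphate shuttles 5 fell and 0 rose, beside 14.6% and 18.3% of all genes tested. Malate dehydrogenase genes Mdh1 and Mdh2 each had a log2 fold change of -0.93, and the mitochondrial aspartate aminotransferase gene Got2 had -0.80 (edgeR adjusted p = 0.0096, 0.0129 and 0.0153). The cytosolic aspartate aminotransferase gene Got1 fell as well (-0.72, 0.0232). Of the glycerol phosphate dehydrogenase genes Gpd1l fell (-0.56, 0.0297), and Gpd1 and Gpd2 were not called, at 0.17 and -0.04.

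Slc25a20 and the carriers related to it by sequence did not move one way, with 2 of 5 lower and 1 higher. Slc25a20, which brings acylcarnitines into the matrix in exchange for carnitine, had 77.4 and 82.8 CPM in Infarcted hearts and 129 and 185 CPM in Uninjured hearts. Its groups lay apart and it fell (log2 fold change -0.97 ± 0.22, edgeR adjusted p = 0.00433). Slc25a29, a carrier of basic amino acids first described as related to the carnitine carrier, had 3.22 and 3.05 CPM in Infarcted hearts and 7.68 and 9.35 CPM in Uninjured hearts (log2 fold change -1.44 ± 0.24, edgeR adjusted p = 0.000836). Slc25a45, a member of the same sequence branch, rose, with 6.16 and 6.70 CPM in Infarcted hearts and 3.76 and 3.93 CPM in Uninjured hearts (log2 fold change 0.74 ± 0.24, edgeR adjusted p = 0.0309). The call of Slc25a45 was lost in edgeR without any one library, at log2 fold changes between 0.65 and 0.77. Slc25a47 and Slc25a48 were not called, at -0.76 and 0.71.

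Among genes of pyruvate import, the carnitine shuttle and the outer membrane channels, 7 of 10 fell and 1 rose. Of all genes tested 14.6% fell and 18.3% rose. Cpt2, the inner membrane partner of Slc25a20 in the carnitine shuttle, had a log2 fold change of -1.29 (edgeR adjusted p = 0.00075), the pyruvate carrier subunit Mpc2 had -1.33 (0.000859) and the outer membrane channel Vdac3 had -0.90 (0.00649). The gene that rose was Tspo, an outer membrane protein also abundant in macrophages, at 0.80 (edgeR adjusted p = 0.0132).

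Cofactor and nucleotide carriers included several of the carriers with the largest decreases: 4 of 9 fell and none rose. Slc25a42 (ENSMUSG00000002346), which imports coenzyme A, had 27.1 and 25.1 CPM in Infarcted hearts and 65.1 and 73.1 CPM in Uninjured hearts. Infarcted and Uninjured values were far apart, and the log2 fold change of -1.40 ± 0.19 had the smallest adjusted p of the carriers (edgeR, 0.000175). Slc25a26, the importer of the methyl donor S-adenosylmethionine, had 7.72 and 6.25 CPM in Infarcted hearts and 15.6 and 21.2 CPM in Uninjured hearts (log2 fold change -1.40 ± 0.23, edgeR adjusted p = 0.000715). It shares 144 exonic bases with Lrig1 on the opposite strand.

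The pyrimidine nucleotide carriers Slc25a33 and Slc25a36 lay on opposite sides of 0. Slc25a33 fell, with 4.42 and 4.10 CPM in Infarcted hearts and 7.52 and 10.1 CPM in Uninjured hearts (log2 fold change -1.05 ± 0.24, edgeR adjusted p = 0.00541). Slc25a36 had 28.6 and 24.7 CPM in Infarcted hearts and 22.7 and 13.8 CPM in Uninjured hearts and was not called (log2 fold change 0.55 ± 0.24, edgeR adjusted p = 0.0975). Slc25a33 shares 281 exonic bases with the antisense gene Gm13068. The groups did not overlap in either gene, and Slc25a36 over Slc25a33 per kilobase was 2.33 and 2.18 in Infarcted hearts and 1.09 and 0.490 in Uninjured hearts. Slc25a51, the NAD carrier, was not called at -0.39, nor was Slc25a32, a carrier linked to folate and FAD, at 0.25.

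Iron and glutathione carriers were lower in 2 of 4 cases. Slc25a39, the glutathione importer, had 72.3 and 60.3 CPM in Infarcted hearts and 92.5 and 134 CPM in Uninjured hearts (log2 fold change -0.77 ± 0.22, edgeR adjusted p = 0.0156), while its paralog Slc25a40 stood at 0.02 and was not called. The mitoferrin Slc25a28 had 10.9 and 13.4 CPM in Infarcted hearts and 18.1 and 22.5 CPM in Uninjured hearts (log2 fold change -0.74 ± 0.21, edgeR adjusted p = 0.0162), whereas the other mitoferrin, Slc25a37, was not called at 0.11. The call of Slc25a28 was lost with the length trend removed (-0.48, adjusted p = 0.0575). Slc25a37 over Slc25a28 per kilobase was 0.589 and 0.417 in Infarcted hearts and 0.341 and 0.221 in Uninjured hearts, so those groups did not overlap. Slc25a37 is abundant in red cell precursors, and 4 of 5 erythroid markers were lower in Infarcted hearts. The part of blood RNA in the mitoferrin values was not tested.

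Amino acid carriers fell in 2 of 3 tested cases. Slc25a38, the glycine importer of heme synthesis, had 7.16 and 7.32 CPM in Infarcted hearts and 12.8 and 16.2 CPM in Uninjured hearts (log2 fold change -1.003 ± 0.22, edgeR adjusted p = 0.00391). The ornithine carrier Slc25a15 had 8.32 and 6.39 CPM in Infarcted hearts and 11.8 and 12.3 CPM in Uninjured hearts (log2 fold change -0.71 ± 0.22, edgeR adjusted p = 0.0258). Both pairs of groups lay apart. The branched-chain amino acid carrier Slc25a44 was not called, at -0.13.

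The orphan carrier Slc25a34 was among the better expressed, with 42.6 and 66.0 CPM in Infarcted hearts and 104 and 145 CPM in Uninjured hearts (log2 fold change -1.19 ± 0.25, edgeR adjusted p = 0.00362). Its relative Slc25a35 had 3.62 and 3.03 CPM in Infarcted hearts and 5.68 and 5.61 CPM in Uninjured hearts (log2 fold change -0.76 ± 0.25, edgeR adjusted p = 0.0345). The call of Slc25a35 was lost with the length trend removed (-0.59, adjusted p = 0.0734), where Slc25a46 was called lower. In Slc25a34 and Slc25a35 the groups did not overlap, though 1151 exonic bases of Slc25a35 are shared with Rangrf on the opposite strand. Slc25a46, an outer membrane member of the family involved in mitochondrial shape, was not called at -0.35 and shares 383 exonic bases with B930094E09Rik on the opposite strand, and Slc25a53 was at 0.06. The citrate carrier Slc25a1 and the dicarboxylate carrier Slc25a10 were not called, at 0.30 and -0.06, and in both the groups overlapped.

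The calcium-regulated ATP-Mg/phosphate carriers adjust the matrix pool of adenine nucleotides. In this class 2 of 3 tested genes rose and 0 fell. Slc25a24 (ENSMUSG00000040322) had 15.04 and 17.2 CPM in Infarcted hearts and 5.89 and 4.35 CPM in Uninjured hearts, a log2 fold change of 1.66 ± 0.23 (edgeR adjusted p = 0.000238). Slc25a25 had 19.4 and 14.3 CPM in Infarcted hearts and 5.45 and 5.85 CPM in Uninjured hearts, a log2 fold change of 1.58 ± 0.23 (edgeR adjusted p = 0.000298). In both genes each Infarcted value was more than double each Uninjured value. Slc25a25 shares 379 exonic bases with Naif1 on the opposite strand.

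The third tested gene of the class, Slc25a23, had 59.5 and 47.1 CPM in Infarcted hearts and 47.4 and 51.5 CPM in Uninjured hearts, and its groups overlapped (log2 fold change 0.11 ± 0.19, edgeR adjusted p = 0.695). It shares 168 exonic bases with the antisense gene Gm17168. It was the class member with the highest level per kilobase in every library. Slc25a24 over Slc25a23 per kilobase was 0.248 and 0.358 in Infarcted hearts and 0.122 and 0.0828 in Uninjured hearts, and Slc25a25 over Slc25a23 was 0.333 and 0.310 in Infarcted hearts and 0.117 and 0.116 in Uninjured hearts. Slc25a41 and Slc25a54 had at most 1 count in any library. Fibroblast and macrophage markers were also higher in Infarcted hearts, and their part in the Slc25a24 and Slc25a25 values was not tested.

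Genes of mitochondrial calcium uptake and release were lower in 4 of 10 cases and higher in 1, beside 14.6% and 18.3% of all genes tested. Ppif, the cyclophilin of the permeability transition, had a log2 fold change of -1.01 (edgeR adjusted p = 0.00341), and Smdt1, a subunit of the calcium uniporter, had -0.83 (0.0125). The gene that rose was Mcub, a dominant-negative relative of the uniporter pore, with 3.30 and 4.12 CPM in Infarcted hearts and 1.59 and 1.47 CPM in Uninjured hearts (log2 fold change 1.28, edgeR adjusted p = 0.00669). The pore gene Mcu was not called at -0.26.

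**Figure D3:**
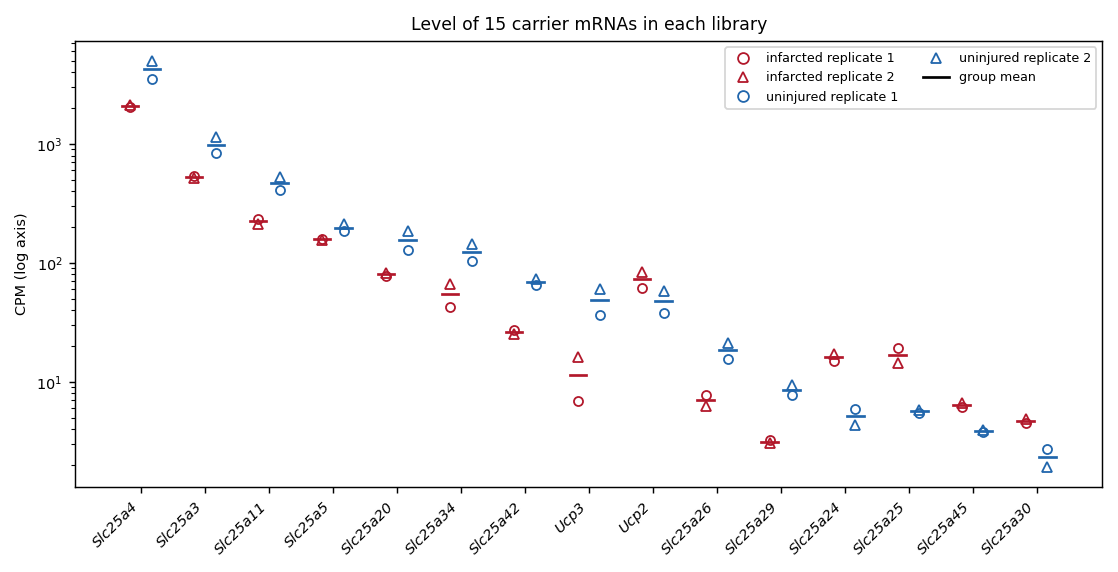
CPM of 15 carriers in each library on a log axis, with Infarcted hearts left of Uninjured hearts for each gene and the group mean as a line. Slc25a4 stands highest at 2064 and 2128 CPM in Infarcted hearts and 3515 and 4982 CPM in Uninjured hearts, and Slc25a24, Slc25a25, Slc25a45 and Slc25a30 are the called genes with higher Infarcted points.

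Of the uncoupling proteins Ucp3 fell, whereas Ucp2 was not called. Ucp3 (ENSMUSG00000032942), the muscle member, whose mRNA is raised by fatty acids, had 6.90 and 16.1 CPM in Infarcted hearts and 36.7 and 60.2 CPM in Uninjured hearts. Infarcted values lay below Uninjured ones, although values within each group also differed widely. The log2 fold change of -2.08 ± 0.51 (a 4.22-fold decrease, edgeR adjusted p = 0.0439) was the largest decrease among the carriers and also had the largest standard error of the genes called. Without Infarcted replicate 2 the log2 fold change was -2.83, and without Infarcted replicate 1 it was -1.66. The edgeR call was lost with library totals as the scale (-1.71, adjusted p = 0.111), without a filter on low counts (-2.09, 0.134) and without Uninjured replicate 2 (-1.69, 0.122). Over all settings run the log2 fold change stayed below 0, and DESeq2 called the gene with all libraries (-2.10, adjusted p = 1.26e-08) and without Uninjured replicate 2 (-1.70, 0.00199).

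Ucp2, which is expressed in many tissues and strongly in macrophages, had 61.4 and 83.8 CPM in Infarcted hearts and 38.0 and 58.4 CPM in Uninjured hearts. The groups did not overlap, but the log2 fold change of 0.59 ± 0.24 was not called (edgeR adjusted p = 0.0751). Of its exonic bases 305 are shared with Dnajb13 on the opposite strand. Per kilobase, the ratio of Ucp2 to Ucp3 was 4.14 and 2.42 in Infarcted hearts and 0.482 and 0.451 in Uninjured hearts. These ratios use transcript lengths of 3988 nt for Ucp2 and 1854 nt for Ucp3. In CPM, without lengths, the genes were close in Uninjured hearts, at 38.0 against 36.7 CPM and 58.4 against 60.2 CPM. Whether the Uninjured ratios lie below 1 therefore depends on the lengths used. A change of length would move all 4 ratios by the same factor, and the groups did not overlap. Macrophage markers were higher in the same Infarcted libraries, and their part in the Ucp2 values was not tested.

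Ucp1, the brown fat member, had 0 and 3 counts in Infarcted hearts and 1 and 2 counts in Uninjured hearts, so it was not tested. Of 6 brown adipocyte markers, Elovl3 and Plin1 were below 0.5 CPM in every library, Adipoq reached 1.55 CPM in Infarcted replicate 2, and Cidea and Fabp4 were not called, at log2 fold changes of 0.01 and -0.01. Dio2, an enzyme that activates thyroid hormone, rose (12.9 and 23.2 CPM in Infarcted hearts, 1.29 and 0.908 CPM in Uninjured hearts). The summed level of the 6 was 374 and 442 CPM in Infarcted hearts and 357 and 429 CPM in Uninjured hearts. Most of this sum was Fabp4, at 342 and 395 CPM in Infarcted hearts and 339 and 404 CPM in Uninjured hearts. The near relatives Slc25a14 and Slc25a27 were not called, at -0.08 and -0.32. Slc25a30, first described in kidney, rose, with 4.52 and 4.91 CPM in Infarcted hearts and 2.73 and 1.93 CPM in Uninjured hearts (log2 fold change 1.02 ± 0.29, edgeR adjusted p = 0.016). The call of Slc25a30 was lost in edgeR without Uninjured replicate 2. In DESeq2 it was lost whichever library was left out, at log2 fold changes between 0.76 and 1.26. Among 10 regulators of uncoupling protein and carrier genes, the nuclear receptor gene Esrra (log2 fold change -0.87, edgeR adjusted p = 0.00605) and the mitochondrial transcription factor gene Tfam (-0.62, 0.0226) fell. These 2 of 10 are near the 14.6% of all genes tested that fell. Ppara, Ppard and Ppargc1a were not called, at -0.14, 0.02 and -0.24.

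**Figure D4:**
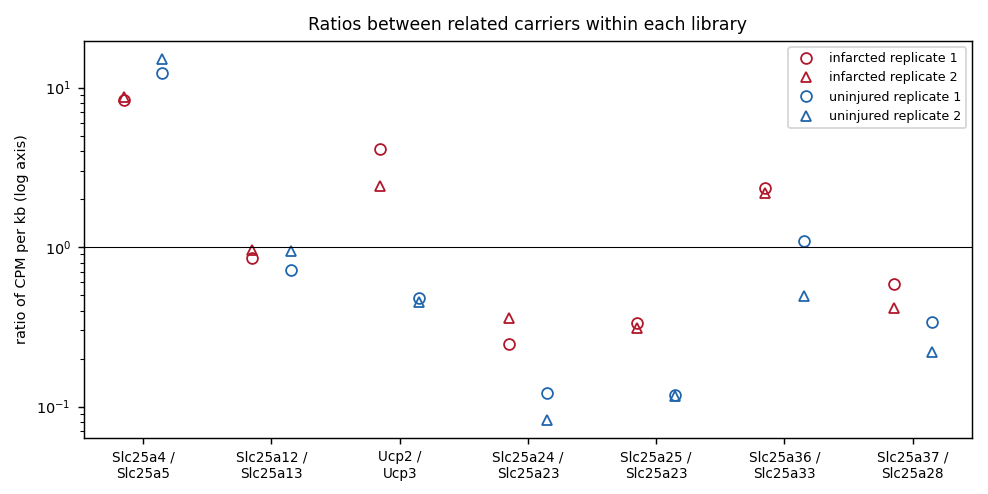
Ratio of CPM per kilobase between related carriers in each library on a log axis, with Infarcted hearts left of Uninjured hearts in each pair of columns. Ucp2 over Ucp3 is higher in Infarcted hearts (4.14 and 2.42) than in Uninjured hearts (0.482 and 0.451), while Slc25a12 over Slc25a13 overlaps between the groups. The place of a ratio relative to 1 depends on the transcript lengths used.

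The partners of the ADP/ATP carriers in moving high-energy phosphate were lower in 6 of 9 tested cases, and none rose. Of all genes tested 14.6% were lower and 18.3% higher. Ak1, a cytosolic adenylate kinase, had a log2 fold change of -1.09 (edgeR adjusted p = 0.00347), the muscle creatine kinase Ckm had -1.25 (0.00367) and the mitochondrial creatine kinase Ckmt2 had -0.95 (0.0119). Of 10 sideroflexins, mitochondrial carrier homologs and mitochondrial ABC transporters, 4 were lower and 1 higher, beside the same shares of all genes. Mtch2, an outer membrane relative of the carriers, and the ABC transporter gene Abcb8 fell (log2 fold change -0.80 and -0.81, edgeR adjusted p = 0.00731 and 0.0105), and the sideroflexin Sfxn3 rose (1.20, 0.00118). Ckm and the cardiomyocyte markers are themselves muscle transcripts, and 7 of the 12 cardiomyocyte markers were lower in the same libraries. Lower levels of the carriers and a lower share of cardiomyocyte RNA therefore cannot be told apart here.

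Few exons or splice sites could be tested. In all, 17 exons in 12 carrier genes and 9 splice sites in 6 carrier genes passed the filters of at least 10 reads in each library and 5 reads of each form over all libraries. The 2 exons with an unadjusted p below 0.05 were exons A and B of Slc25a3, which are mutually exclusive and so read the same switch. The 6 events with the next smallest p had edgeR adjusted p between 0.745 and 0.848.

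Of these, the largest difference in percent inclusion was in a 45-nt exon of Slc25a26 (chr6:94526328-94526372, mm9). It was included in 75.0% and 69.2% in Infarcted hearts and 42.9% and 54.1% in Uninjured hearts, from 14 and 11 corrected reads in Infarcted hearts and 35 and 47 in Uninjured hearts. The Infarcted values were higher but their 95% Wilson intervals, 45.4 to 88.3 and 43.4 to 90.3, overlapped the Uninjured intervals of 28.0 to 59.1 and 39.2 to 66.7 (edgeR unadjusted p = 0.0943). A 126-nt exon of Slc25a22 (chr7:148619799-148619924, mm9) was included in 85.5% and 83.3% in Infarcted hearts and 92.8% and 92.1% in Uninjured hearts (edgeR unadjusted p = 0.141). These values came from 77 and 44 corrected reads in Infarcted hearts and 107 and 146 in Uninjured hearts. The values did not overlap between groups, but their 95% Wilson intervals did. Those were 76.2 to 91.8 and 70.6 to 92.1 in Infarcted hearts and 85.9 to 96.2 and 86.2 to 95.2 in Uninjured hearts.

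The other 4 events were smaller or less even. An alternative 3′ splice site of Slc25a20 was used in 100% of reads in both Infarcted hearts and in 99.63% and 99.28% in Uninjured hearts (edgeR unadjusted p = 0.0762). A 101-nt exon of Slc25a46 was included in 98.65% and 98.23% in Infarcted hearts and 92.7% and 97.94% in Uninjured hearts (edgeR unadjusted p = 0.135). In a 64-nt exon of Slc25a16 the groups overlapped, at 89.5% and 77.1% in Infarcted hearts and 96.8% and 88.0% in Uninjured hearts. These came from 54 and 31 corrected reads, against 61 and 47. The groups also overlapped in a 123-nt exon of Slc25a38 (2.56% and 18.5%, against 2.50% and 5.34%). It had only 20 and 16 corrected reads in Infarcted hearts and 41 and 69 in Uninjured hearts. The 95% Wilson interval of the 18.5% was 6.59 to 43.0.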

How the data were processed

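Polyadenylated RNA from heart was purified with a Qiagen kit and sequenced as single-end 50 bp reads on a GAII, per the labels' protocols. The groups and replicate numbers come from the labels. The authors deposited raw counts per Ensembl gene (whole numbers, not normalized) and a table of percent inclusion per splicing event with corrected inclusion and exclusion reads and a quality score for each library. The build is mm9, per the submitters' processing notes; for the aligner, counter, annotation release, strand setting and event tool, the sources used here name none. Deposited percent values equal inclusion over all corrected reads within 0.05 points in 99.97% of event values with at least 10 reads. Symbols and transcript lengths came from GENCODE M21 by Ensembl identifier (20450 genes matched, 1102 did not). Length is the median over principal transcripts. Events listed under older symbols of Slc25a51, Slc25a53 and Slc25a54 (15 in all) were outside the rule.

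Counts were tested in R 4.3.3 with edgeR 4.0.16 (TMM, filterByExpr by group, robust quasi-likelihood F-test), with 2 residual degrees of freedom and a common biological coefficient of variation of 19.3%. Standard errors are the absolute log2 fold change over the square root of F. Events with at least 10 reads in each library and 5 reads of each form over all libraries were tested after rounding the corrected reads, as a form-by-group interaction with a term per library. Wilson intervals are at 95% and were computed from the rounded corrected reads, and reads without molecular identifiers are not independent molecules. The code was tested on simulated data. Replicates are separate mice. Alternatives were the normalization, the filter, DESeq2 1.42.0, limma 3.58.1 on logits, a length correction, removal of mitochondrially encoded genes, the replicate block and leaving out each library.

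Every carrier called was named, except 1 that is not reported here, along with the 6 with the highest level per length, Ucp1, Ucp2, Ucp3, Slc25a3, Slc25a4 and Slc25a5, and the members of each pathway list with the smallest p. Values in each library are given for more called carriers than the rule asked. The uncalled carriers and list genes given with values beyond these were chosen after their values were seen. The carriers, lists, tests and alternatives were chosen with earlier results of these data known.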

Additional observations from a re-analysis of the deposited data

How the results depend on the processing

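Counts of carriers called were 4 higher and 19 lower with RLE factors, DESeq2, edgeR's newer dispersion method or without mitochondrially encoded genes. Library totals alone gave 6 higher and 10 lower (all genes 4386 and 786), and moved Slc25a5 to 0.0238, below the median of all genes on that scale. Removing the length trend gave 4 and 18, lost Slc25a28 and Slc25a35, gained Slc25a46, and turned Slc25a5 to 0.0191; the cause was not tested. Leaving out each library in turn gave 102 to 2144 higher and 8 to 1824 lower genes and 0 to 4 higher and 0 to 17 lower carriers in edgeR. In DESeq2, added after the data were seen, it gave 1359 higher and 1158 lower genes (2 and 17 carriers) without Infarcted replicate 1, 1303 and 851 (2 and 13) without Infarcted replicate 2, 1823 and 1721 (3 and 17) without Uninjured replicate 1, and 1161 and 602 (3 and 12) without Uninjured replicate 2. The lowest edgeR counts came without Uninjured replicate 2, and the cause was not tested. With either Uninjured library left out, the Uninjured library that remains is assumed to vary like the Infarcted pair. Same-numbered libraries deviated together only weakly (correlation 0.108 over 13905 genes, 2 pairs), so the numbers are not taken to pair the samples; with the replicate block 6 carriers were higher and 19 lower (all genes 2950 and 2340), the added calls being Slc25a36 and Ucp2, and 0 carrier events were called by limma with the block. No carrier event was called under any setting run. Of 327 carrier events 26 passed the filters on reads.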
